A study of Mus musculus with 10 samples.

Results

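The small RNA libraries of mouse sperm were searched for 9 microRNAs (miRNAs) that are known from blood and immune cells. They were mmu-mir-223 and mmu-mir-142a of myeloid cells, mmu-mir-150 and mmu-mir-155 of lymphocytes, mmu-mir-451a and mmu-mir-144 of red cells, and mmu-mir-146a, mmu-mir-146b and mmu-mir-21a of inflammation. A read of any of 1136 miRNA hairpins was found in the 10 libraries, and these 9 are members of that set. They were chosen by the cell types for which they are known, at a time when differences between the diet groups in these data, that of mmu-mir-223 among them, had already been seen. The values of the 2 diet groups are therefore given as a description.

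The mice were C57BL/6J males of the F0 generation, fed from 4 weeks of age for 10 weeks. The CD-F0 group (n = 5) ate a control diet with 10% of its kcal as fat, and the HFD-F0 group (n = 5) ate a high-fat diet with 42%. Mature sperm came from the tail of the epididymis and the vas deferens. A step that removes other cells is not given in the sources used here, nor is it stated that each sample is a separate mouse, so that the p-values below measure only the spread between these samples. The clean reads, which are the reads that entered the alignment, ranged from 30431401 to 31586854 in CD-F0 sperm and from 29558751 to 32178088 in HFD-F0 sperm. miRNAs took 15.4% to 18.2% of them in CD-F0 sperm and 14.5% to 23.5% in HFD-F0 sperm, with the highest share in HFD-F0 replicate 1 and the lowest in HFD-F0 replicate 5. The level of a miRNA is its number of reads over the clean reads of the sample, times 1e6 (RPM). A read holds a whole miRNA, so that RPM of different miRNAs were compared without a correction for length. Every sample held the germ cell miRNAs mmu-mir-34b, mmu-mir-34c and mmu-mir-449a, at 1851 RPM or more. Of the further germ cell miRNAs, mmu-mir-449b was at only 1.18 to 3.14 RPM and mmu-mir-449c at 0.823 to 3.21 RPM. Mature sperm transcribe little, and part of their small RNA is known to be gained from the epithelium of the epididymis. In such bulk samples fewer cells of a type and less RNA per cell cannot be told apart.

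A miRNA is cut from a hairpin in a longer transcript, and the mature strand guides an Argonaute protein to mRNAs that pair with bases 2 to 8 of it, the seed. The mature strand best known for each hairpin is shown with its seed in capitals, since members with the same seed can share targets. The sequences are from RefSeq (GRCm38.p6), read 5′ to 3′, and 8 of the 9 members were matched.
mmu-miR-223-3p: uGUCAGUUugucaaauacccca
mmu-miR-142a-3p: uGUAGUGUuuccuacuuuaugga
mmu-miR-155-5p: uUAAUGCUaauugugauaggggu
mmu-miR-451a: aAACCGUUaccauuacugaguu
mmu-miR-144-3p: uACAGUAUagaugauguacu
mmu-miR-146a-5p: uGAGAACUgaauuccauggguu
mmu-miR-146b-5p: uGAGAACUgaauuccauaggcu
mmu-miR-21a-5p: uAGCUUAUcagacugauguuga
The remaining one is mmu-miR-150-5p. Of these strands, mmu-miR-146a-5p and mmu-miR-146b-5p have the same seed and the same base at 20 of 22 positions. Counted from 1 at the 5′ end, with the base of mmu-miR-146a-5p first, they differ by G18A and U21C. The seed of mmu-miR-21a-5p was shared with mmu-miR-21c, whose hairpin stood at 0.451 to 0.765 RPM, and the other 5 seeds occurred once in the table.

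The hairpin of mmu-mir-144 lies at chr11:78073005-78073070 on the plus strand of GRCm38, 99 bases ahead of that of mmu-mir-451a at chr11:78073170-78073241, and both are known to come from a common primary transcript in red cell precursors. The other pair with a known kinship, mmu-mir-146a and mmu-mir-146b, lies apart. mmu-mir-146a is at chr11:43374397-43374461 on the minus strand, outside other annotated genes, and mmu-mir-146b is at chr19:46342762-46342870 on the plus strand, in an intron of Mfsd13a. mmu-mir-223 is at chrX:96242817-96242926 on the plus strand, within an exon of the non-coding F630028O10Rik. mmu-mir-142a is at chr11:87756864-87756927 on the plus strand, in an intron of its host Mir142hg. mmu-mir-155 is at chr16:84714140-84714204 on the plus strand, in an exon of its host Mir155hg, and mmu-mir-150 is at chr7:45121757-45121821 on the plus strand, outside other annotated genes. mmu-mir-21a is at chr11:86584067-86584158 on the minus strand, in an exon of Vmp1. The files give reads per hairpin, so that both arms of a hairpin are added up. A read that fits several hairpins is split between them, which makes mmu-mir-142a, mmu-mir-451a and mmu-mir-21a uncertain by the share given to mmu-mir-142b, mmu-mir-451b, mmu-mir-21b and mmu-mir-21c. None of these 4 exceeded 0.793 RPM in a sample. Reads that were not whole also occurred for mmu-mir-223, mmu-mir-146a and mmu-mir-146b in 4 samples each and for mmu-mir-144 in 1. For mmu-mir-146a and mmu-mir-146b these were the same samples, CD-F0 replicates 2 to 5. Which hairpins shared those reads was not tested.

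All 9 members were found in every sample, and together they took 7.56% to 10.99% of the miRNA reads of a sample, with a median of 9.45%. Their summed level was 16653 ± 2158 RPM (SD, n = 5) for CD-F0 sperm and 16939 ± 5407 RPM (SD, n = 5) for HFD-F0 sperm. Most of it was mmu-mir-21a, a miRNA that many tissues express and that held 65.7% to 77.8% of the reads of the members. By its mean in CD-F0 sperm it was number 2 of all 1136 hairpins. mmu-mir-146a followed as number 12 and mmu-mir-451a as number 40. mmu-mir-223, mmu-mir-150, mmu-mir-142a, mmu-mir-146b and mmu-mir-155 took places 82, 86, 128, 151 and 196, and mmu-mir-144 came last as number 401. The ranges of the samples of mmu-mir-21a and mmu-mir-146a did not overlap, nor did those of mmu-mir-155 and mmu-mir-144. Every other pair of neighbours in this order, from mmu-mir-146a down to mmu-mir-155, overlapped in CD-F0 sperm, the HFD-F0 group or both. The lowest member, mmu-mir-144, rested on 28 to 183 reads per sample. Its lowest level, 0.870 RPM in HFD-F0 replicate 3, has a 95% Wilson interval of 0.602 to 1.26 RPM, whereas that of mmu-mir-223 in its lowest sample, 342 RPM in CD-F0 replicate 4, is 336 to 348 RPM. The intervals cover counting error only.

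**Figure D1:**
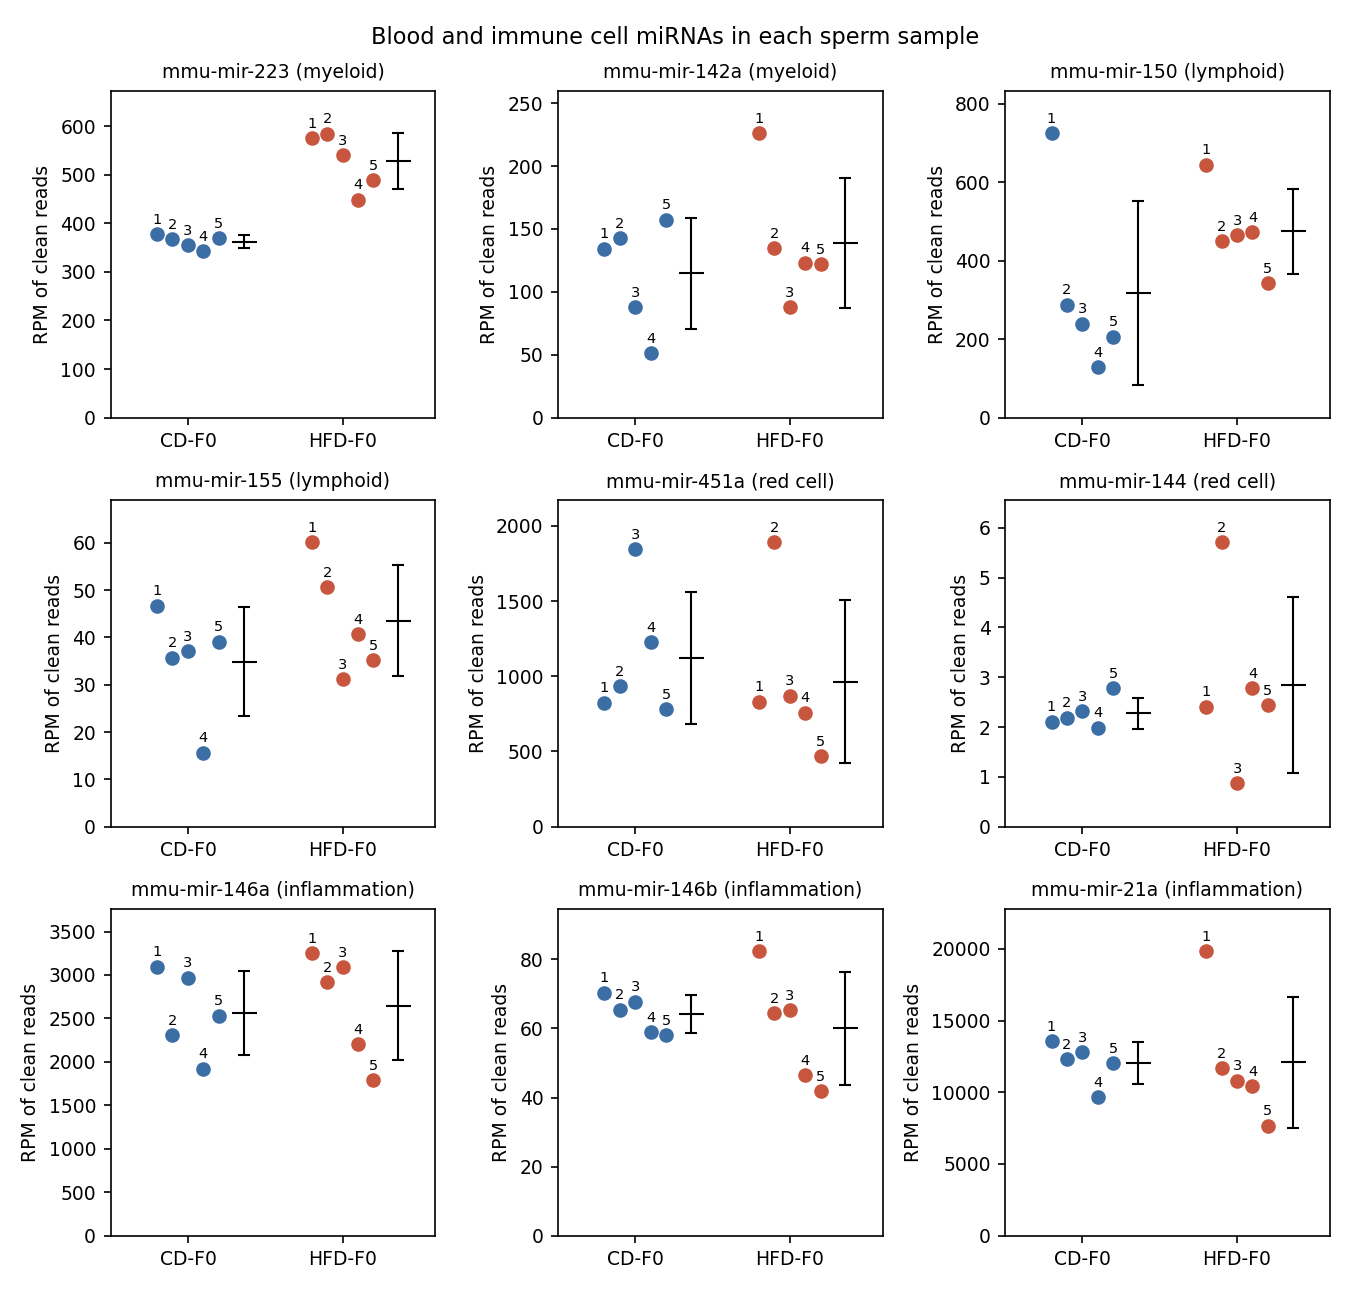
Level of each blood and immune cell miRNA in RPM of clean reads on a linear axis from 0, in the 5 CD-F0 samples (blue) and the 5 HFD-F0 samples (red), with the replicate number at each point and the mean ± SD as a black bar. The HFD-F0 samples of mmu-mir-223 sit between 449 and 584 RPM, all above the CD-F0 samples at 342 to 377 RPM, while the groups overlap in the other 8 panels.

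For the comparison of the diets, all small RNA features were fitted with edgeR's quasi-likelihood test and called at p of at most 0.05 with an absolute log2 fold change of at least 1. Of 814 features tested, 30 were called (3.69%). All 9 members passed the filter on low counts, and 0 of them were called. Without the fold change threshold, 51 of 529 tested miRNA hairpins had p of at most 0.05 (9.64%), and mmu-mir-223 was the 1 member among them. After Benjamini-Hochberg adjustment over all 814 features the adjusted p of edgeR's test was 0.225 to 0.944 for the members. With DESeq2 in place of edgeR 0 members were called as well. The median log2 fold change of HFD-F0 over CD-F0 was 0.15 over the members, of which 5 were positive and 4 negative, and -0.05 over all tested hairpins, of which 236 were positive and 293 negative. Without HFD-F0 replicate 2 the median of the members was -0.13. The log2 fold change was positive for the 4 myeloid and lymphoid members, negative for the 3 inflammation members and split in the red cell pair. The signs of mmu-mir-142a, mmu-mir-144, mmu-mir-146a and mmu-mir-21a were not stable. With clean reads as library size those of mmu-mir-146a and mmu-mir-21a were positive, and that of mmu-mir-142a was negative without CD-F0 replicate 4 or without HFD-F0 replicate 1. That of mmu-mir-144 was negative without HFD-F0 replicate 2. The other members kept their sign under every setting.

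**Figure D2:**
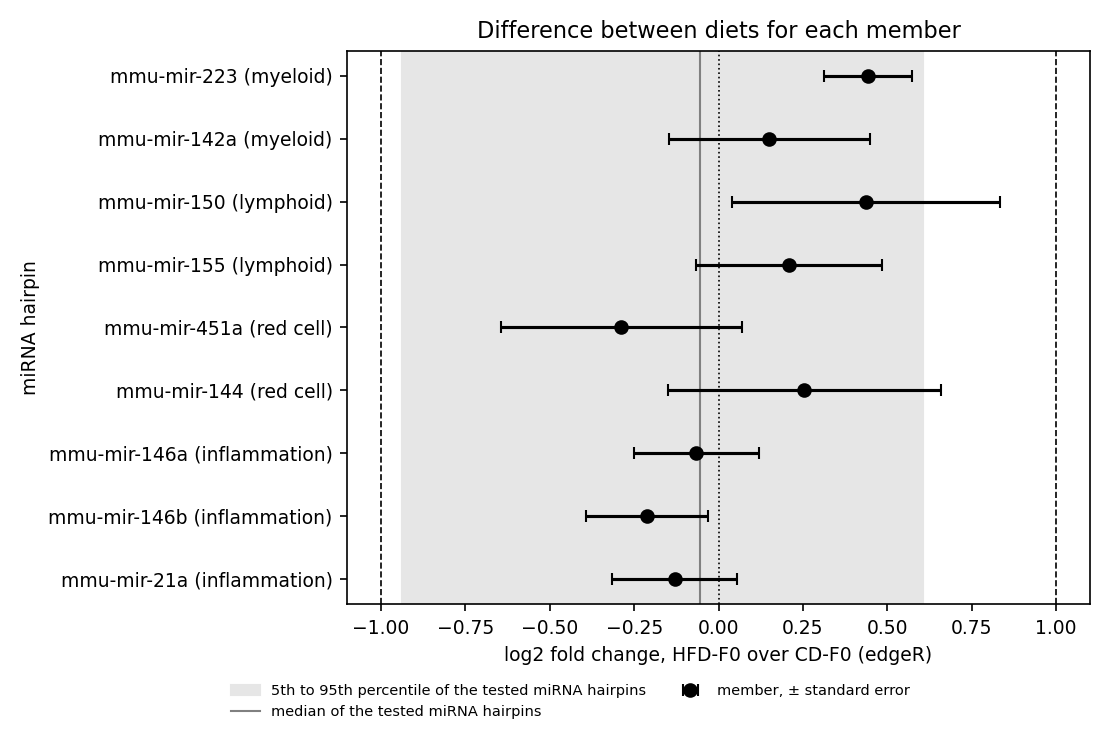
The log2 fold change of HFD-F0 over CD-F0 for each member from edgeR (points) with its standard error (bars), dashed lines at the fold change threshold and grey shading from the 5th to the 95th percentile of the tested miRNA hairpins. All 9 points lie inside the shading and between the dashed lines, from -0.29 for mmu-mir-451a to 0.44 for mmu-mir-223.

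Of the myeloid members, mmu-mir-223 is known for restraining the growth and activation of granulocytes. Its level was 377, 367, 355, 342 and 369 RPM in CD-F0 replicates 1 to 5 and 575, 584, 540.3, 449 and 489 RPM in HFD-F0 replicates 1 to 5. Every HFD-F0 sample lay above every CD-F0 sample, with means of 362 ± 13.7 RPM (SD, n = 5) and 528 ± 57.8 RPM (SD, n = 5). Such a full separation upwards was found in 15 of 529 tested hairpins (2.84%), and one downwards in 2 (0.378%). The log2 fold change of mmu-mir-223 was 0.44 ± 0.13 (SE), a ratio of means of 1.46. With miRNA reads in place of clean reads as the denominator the ratio was 1.34. The CD-F0 samples, at 1945 to 2223 on that scale, were again all below the HFD-F0 samples at 2444 to 3373.

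The other myeloid member, mmu-mir-142a, is expressed in nearly all blood cells and few other cells. It was at 134, 143, 88.0, 51.2 and 157 RPM in CD-F0 replicates 1 to 5. In HFD-F0 replicates 1 to 5 it was at 226, 134, 87.9, 123 and 122 RPM. HFD-F0 replicate 1 stood above all other samples, CD-F0 replicate 4 below them, and the remaining samples of the groups were intermixed. Its log2 fold change was 0.15 ± 0.30 (SE). Without HFD-F0 replicate 1 it was -0.05, and leaving out CD-F0 replicate 4 in its place gave -0.03. The reads of mmu-mir-223 per read of mmu-mir-142a ranged from 2.34 to 6.67 in CD-F0 sperm and from 2.54 to 6.14 in HFD-F0 sperm, so that the myeloid members did not keep a fixed ratio in either diet.

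mmu-mir-150 is abundant in mature B and T lymphocytes, where it holds down the transcription factor Myb. In CD-F0 replicates 1 to 5 its level was 725, 288, 239, 129 and 207 RPM. In HFD-F0 replicates 1 to 5 it was 645, 450.4, 466, 472 and 343 RPM. CD-F0 replicate 1 was the highest of the 10 samples and the other CD-F0 samples were the 4 lowest. The log2 fold change was 0.44 ± 0.40 (SE) with all samples and 1.08 without CD-F0 replicate 1, which took the miRNA past both thresholds. In that setting 37 of 826 features were called. The mean was 318 ± 235 RPM (SD, n = 5) for CD-F0 sperm and 475 ± 108 RPM (SD, n = 5) for HFD-F0 sperm. With miRNA reads as the denominator, RPM of mmu-mir-150 spanned 837 to 4228 in CD-F0 sperm but 2370 to 2740 in HFD-F0 sperm, a coefficient of variation of 73.0% against 6.30%.

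mmu-mir-155 is made from its host RNA in activated lymphocytes and macrophages. Its level in CD-F0 replicates 1 to 5 was 46.7, 35.7, 37.1, 15.6 and 39.1 RPM. The HFD-F0 replicates 1 to 5 held 60.1, 50.6, 31.1, 40.7 and 35.2 RPM. The groups overlapped, with 2 HFD-F0 samples above every CD-F0 sample and CD-F0 replicate 4 far below the rest. For mmu-mir-155 the log2 fold change was 0.21 ± 0.28 (SE), and 0.03 without CD-F0 replicate 4. That sample was the lowest of the 10 for all 4 myeloid and lymphoid members.

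mmu-mir-451a, which Argonaute 2 matures without Dicer, is the most abundant miRNA of red cells. Its level was 823, 934, 1843, 1226 and 782 RPM in CD-F0 replicates 1 to 5. It was 832, 1891, 869.6, 757 and 469 RPM in HFD-F0 replicates 1 to 5. The highest sample of each group, CD-F0 replicate 3 and HFD-F0 replicate 2, reached about the same level, and the groups overlapped. On the log2 scale the fold change was -0.29 ± 0.36 (SE), ranging from -0.74 without HFD-F0 replicate 2 to -0.07 without CD-F0 replicate 3.

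mmu-mir-144 was at 2.10, 2.18, 2.32, 1.99 and 2.78 RPM in CD-F0 replicates 1 to 5. In HFD-F0 replicates 1 to 5 it was at 2.41, 5.71, 0.870, 2.79 and 2.44 RPM. HFD-F0 replicates 2 and 3 were the highest and lowest of all samples, and the remaining 8 lay within 1.99 to 2.79 RPM. Its log2 fold change was 0.25 ± 0.40 (SE), and -0.21 without HFD-F0 replicate 2. Reads of mmu-mir-451a outnumbered those of mmu-mir-144 by 281 to 794 times in CD-F0 sperm and by 193 to 999 times in HFD-F0 sperm.

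mmu-mir-146a is induced by NF-kB and represses the signalling proteins Traf6 and Irak1. Its level in CD-F0 replicates 1 to 5 was 3097, 2308, 2969, 1920.2 and 2532 RPM. In HFD-F0 replicates 1 to 5 it was 3249, 2916, 3086, 2203 and 1787 RPM. The groups overlapped over nearly their whole range, and the log2 fold change was -0.07 ± 0.19 (SE). With clean reads in place of the TMM-scaled library size it was 0.05, so that its sign followed the scaling, and it was also above 0 without CD-F0 replicate 1 (0.052) or without HFD-F0 replicate 5 (0.034).

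mmu-mir-146b, which shares the seed shown above, was far lower. It was at 70.4, 65.5, 67.8, 58.9 and 58.1 RPM in CD-F0 replicates 1 to 5 and at 82.4, 64.4, 65.2, 46.4 and 41.8 RPM in HFD-F0 replicates 1 to 5. HFD-F0 replicate 1 lay above and HFD-F0 replicates 4 and 5 lay below all CD-F0 samples, and the log2 fold change was -0.21 ± 0.18 (SE). Reads of mmu-mir-146a exceeded those of mmu-mir-146b by 39.8 ± 5.49 times (SD, n = 5) for CD-F0 sperm and by 44.4 ± 3.40 times (SD, n = 5) for HFD-F0 sperm.

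mmu-mir-21a is induced in inflammation and represses Pdcd4. In CD-F0 replicates 1 to 5 it was at 13576, 12319, 12783, 9667 and 12009.5 RPM. In HFD-F0 replicates 1 to 5 it was at 19843, 11667, 10808, 10418 and 7659 RPM. The mean was 12071 ± 1468 RPM (SD, n = 5) for CD-F0 sperm and 12079 ± 4592 RPM (SD, n = 5) for HFD-F0 sperm, a ratio of 1.001, whereas the spread between samples was wider in HFD-F0 sperm. HFD-F0 replicate 1 was the highest and HFD-F0 replicate 5 the lowest of the 10 samples. The log2 fold change was -0.13 ± 0.19 (SE), and it was 0.00 with clean reads as library size. The ratio of means was 0.84 without HFD-F0 replicate 1, with a log2 fold change of -0.33. Leaving out HFD-F0 replicate 5 in its place gave 1.09 and -0.02. With miRNA reads as the denominator the ratio was 0.89. HFD-F0 replicates 2 to 5 were then at 52846 to 61374, below all CD-F0 samples at 62847 to 79130.5. HFD-F0 replicate 1 was above them at 84303. The coefficient of variation was 19.5% in HFD-F0 sperm and 8.22% in CD-F0 sperm on that scale.

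**Figure D3:**
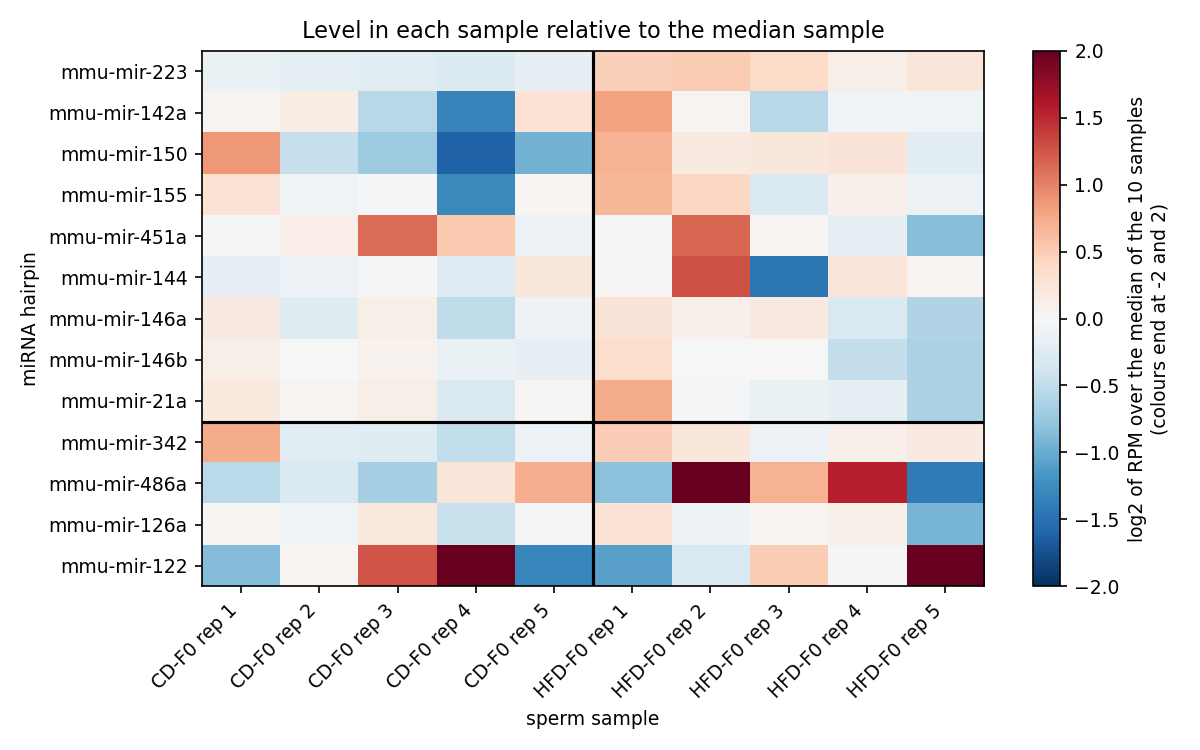
Level of the 9 members (upper rows) and of 4 other miRNAs (lower rows) in each sample, as log2 of RPM over the median of the 10 samples, with red above and blue below the median and colours ending at -2 and 2. The row of mmu-mir-223 changes colour at the line between the diets, while in CD-F0 replicate 4 the 4 myeloid and lymphoid members are at their lowest and mmu-mir-122 is at its highest, 101 RPM.

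The samples at the ends of these ranges recurred. CD-F0 replicate 4 was the lowest of 10 for 4 members and among the lowest 3 for 7 members. HFD-F0 replicate 5 was the lowest for mmu-mir-451a, mmu-mir-146a, mmu-mir-146b and mmu-mir-21a. HFD-F0 replicate 1, the sample with the largest share of miRNA reads, was the highest for 5 members, and HFD-F0 replicate 2 was the highest for mmu-mir-223 and both red cell members. The liver miRNA mmu-mir-122 stood at 101 RPM in CD-F0 replicate 4 and at 57.1 RPM in HFD-F0 replicate 5, against 3.45 to 20.2 RPM in the other 8 samples. With these 2 samples left out together, 0 members were called and the log2 fold change of mmu-mir-223 was 0.44 ± 0.16 (SE).

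On clean reads mmu-mir-223 varied least of the members between samples. Its coefficient of variation was 3.80% in CD-F0 sperm and 10.95% in HFD-F0 sperm. Of the 290 tested hairpins with a mean of at least 10 RPM, 1 varied less in CD-F0 sperm and 16 varied less in HFD-F0 sperm, and the medians of these hairpins were 23.8% and 25.3%. The other members ranged from 8.46% for mmu-mir-146b to 74.1% for mmu-mir-150 in CD-F0 sperm. In the HFD-F0 group they ranged from 22.8% for mmu-mir-150 to 62.2% for mmu-mir-144. With miRNA reads as the denominator mmu-mir-223 was no longer the least variable member in HFD-F0 sperm, at 14.06% against 6.30% for mmu-mir-150, 14.07% for mmu-mir-146b and 14.7% for mmu-mir-146a. In CD-F0 sperm it was at 5.27% on that scale and mmu-mir-146b at 6.43%. These values describe 5 samples each, and no test was made of them.

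**Figure D4:**
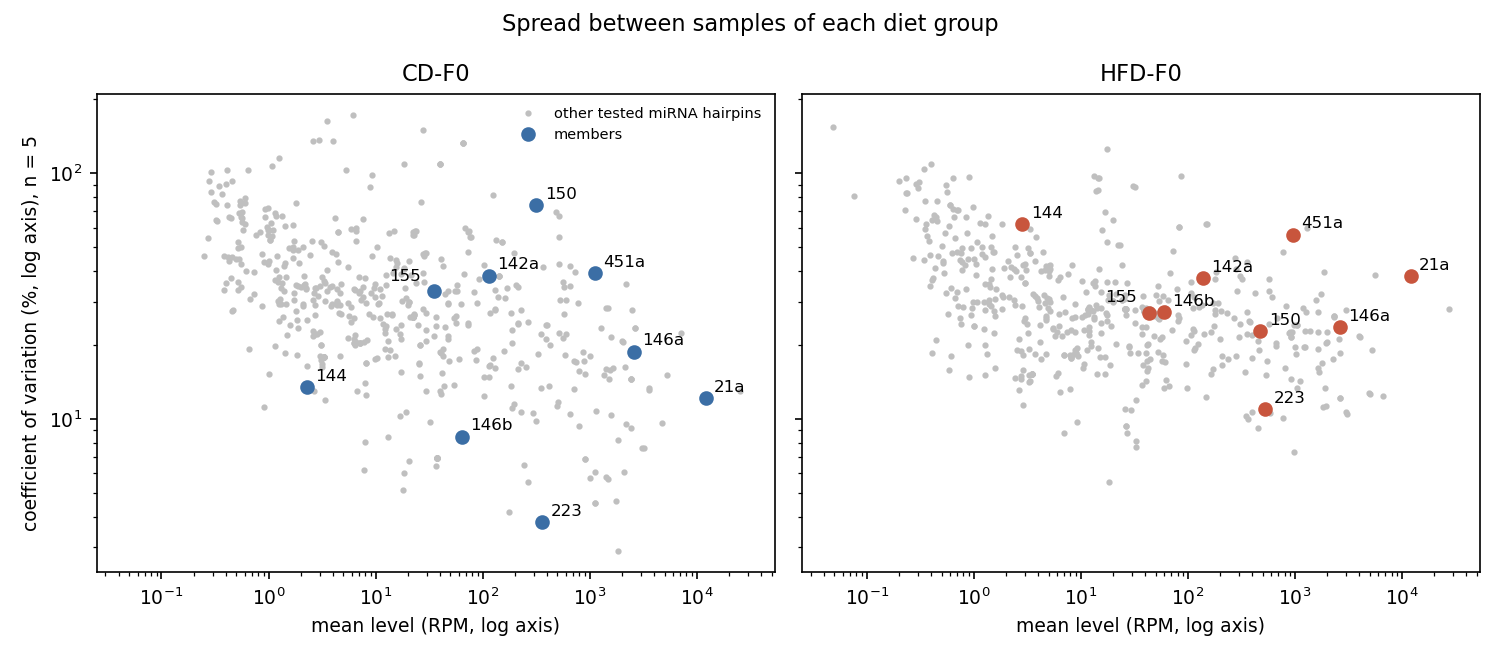
Coefficient of variation between the 5 samples of a diet group (percent, log axis) against the mean level of the group (RPM, log axis) for the tested miRNA hairpins (grey) and the 9 members (coloured, labelled without the prefix mmu-mir-). On clean reads mmu-mir-223 is the lowest of the members in both groups, at 3.80% in CD-F0 and 10.95% in HFD-F0, while mmu-mir-150 moves from 74.1% to 22.8% and mmu-mir-144 from 13.5% to 62.2%.

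Whether members known from the same cells or with the same seed varied together across samples was tested for 5 pairs, on log2 RPM over all 10 samples, with 100000 permutations, two-sided, and p adjusted over the 5 pairs. All levels of a sample have its clean reads as their common denominator. For mmu-mir-146a and mmu-mir-146b Pearson's r was 0.82 (permutation p = 0.00291, adjusted p = 0.0145) and Spearman's rho was 0.85 (permutation p = 0.00313, adjusted p = 0.0156). With the diet means removed r was 0.86 (exact permutation p = 0.00167 within diets, adjusted p = 0.00833). Without CD-F0 replicate 4 and HFD-F0 replicate 5, the samples farthest from the median of mmu-mir-146a, r was 0.80 (permutation p = 0.00608, adjusted p = 0.0304) and rho was 0.81 (permutation p = 0.0218, adjusted p = 0.0919), so that rho no longer passed. By rho the pair also did not pass without CD-F0 replicate 1, without HFD-F0 replicate 1 or without HFD-F0 replicate 5, with a rho of 0.80 and a permutation adjusted p of 0.0691 in each case. With miRNA reads as the denominator rho fell to 0.52 (permutation p = 0.135, adjusted p = 0.299). By r the pair did not pass with miRNA reads as the denominator, where r was 0.62 (permutation adjusted p = 0.134), nor without HFD-F0 replicate 1, where r was 0.79 (permutation adjusted p = 0.0518), nor without HFD-F0 replicate 5, where r was 0.71 (permutation adjusted p = 0.0606). The reads were aligned with a mismatch allowed, and the 2 mature strands are alike up to the first of the differences given above. The part of reads that fit both hairpins in the correlation was not tested.

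For the lymphoid members mmu-mir-150 and mmu-mir-155, r was 0.78 (permutation p = 0.00671, adjusted p = 0.0168) and rho was 0.61 (permutation p = 0.0668, adjusted p = 0.167). This relation rested on CD-F0 replicate 4, the lowest sample of both. Without CD-F0 replicates 4 and 5, those farthest from the median of mmu-mir-150, r was 0.62 (permutation p = 0.105, adjusted p = 0.194), and with the diet means removed it was 0.74 (exact permutation p = 0.0670 within diets, adjusted p = 0.168). Leaving out CD-F0 replicate 4 alone gave an r of 0.56 (permutation adjusted p = 0.298), and leaving out HFD-F0 replicate 1 alone gave 0.73 (permutation adjusted p = 0.0617), whereas r was 0.85 without CD-F0 replicate 5. The red cell members mmu-mir-451a and mmu-mir-144, although neighbours in the genome, had an r of 0.33 (permutation p = 0.385, adjusted p = 0.482) and a rho of -0.20 (permutation p = 0.582, adjusted p = 0.708). Without CD-F0 replicate 3 and HFD-F0 replicate 2 their r was -0.27 (permutation p = 0.335, adjusted p = 0.418). The low read number of mmu-mir-144 limits what this pair can show.

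The samples of mmu-mir-223 separate by diet, so that its pairs are given with the diet means removed. With mmu-mir-142a, r was 0.45 (exact permutation p = 0.157 within diets, adjusted p = 0.261) and rho was 0.48 (exact permutation p = 0.171, adjusted p = 0.284). With mmu-mir-451a, r was 0.37 (exact permutation p = 0.435 within diets, adjusted p = 0.456) and rho was 0.33 (exact permutation p = 0.417). Neither a shared course nor its absence could be shown for the myeloid members at this number of samples.

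**Figure D5:**
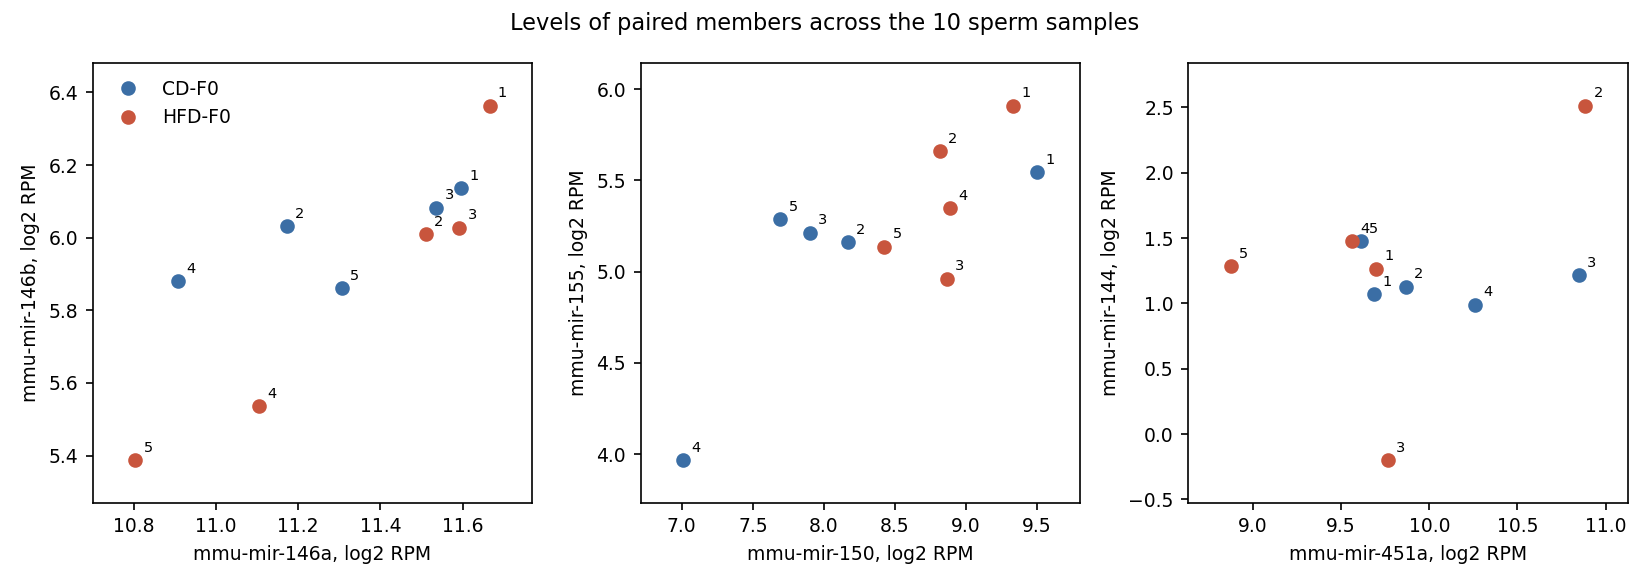
Level of one member against its partner in the 10 samples (log2 RPM on both axes, CD-F0 blue, HFD-F0 red, replicate numbers at the points) for mmu-mir-146a and mmu-mir-146b, mmu-mir-150 and mmu-mir-155, and mmu-mir-451a and mmu-mir-144. The first pair rises together through both diets (r = 0.82), the second depends on CD-F0 replicate 4 at the lower left (r = 0.56 without it), and in the third HFD-F0 replicates 2 and 3 lie far apart on the axis of mmu-mir-144.

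Among 289 hairpins with a mean of at least 10 RPM, those whose levels over the 10 samples were most like mmu-mir-223 were mmu-mir-221, with a Spearman's rho of 0.87, and mmu-let-7a-1 and mmu-let-7a-2, each with 0.84. These rho values pool the diets, and mmu-mir-221 also stood at 254 RPM in CD-F0 sperm and 452 RPM in HFD-F0 sperm, so that likeness to mmu-mir-223 cannot be told apart from the difference between the diets. mmu-mir-142a came in place 96 with 0.35. Most like mmu-mir-150 were mmu-mir-423 with a rho of 0.90, mmu-mir-342, itself a miRNA of lymphocytes, with 0.87 and mmu-mir-10a with 0.83. The other lymphoid member, mmu-mir-155, came only in place 45 with 0.61, behind the myeloid mmu-mir-223 in place 25 with 0.66. For mmu-mir-451a they were mmu-mir-2137 with a rho of 0.76 and mmu-mir-139 and mmu-mir-199a-1 with 0.71 each. For mmu-mir-146a they were mmu-mir-322 and mmu-mir-676 with 0.90 each and mmu-mir-28a with 0.87, while mmu-mir-146b came in place 5 with 0.85 and mmu-mir-21a in place 8 with 0.83. The rho values of these members pool the diets as well. mmu-mir-10a stood at 727 RPM in CD-F0 sperm and 1260 RPM in HFD-F0 sperm, and mmu-mir-423 at 44.4 and 58.9 RPM. Their likeness to mmu-mir-150, at 318 and 475 RPM, cannot be told apart from the difference between the diets either. All rho values describe samples with a common denominator and were not tested.

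Of 13 further blood and immune miRNAs, 11 were tested and 0 were called, with 4 positive and 7 negative log2 fold changes and a median of -0.13. Of these, mmu-mir-132 was the 1 with an edgeR p of at most 0.05, a level reached by 9.64% of all tested miRNA hairpins. Its log2 fold change was -0.71. It stood at 147 RPM in CD-F0 replicate 4, against 47.7 to 65.8 RPM in the other CD-F0 samples. In HFD-F0 sperm it was at 37.3 to 63.7 RPM. The log2 fold changes ran from -0.87 for mmu-mir-451b, at under 1 RPM, to 0.98 for mmu-mir-486a. mmu-mir-486a, a further red cell miRNA, was at 10.9, 12.9, 9.91, 18.6 and 26.2 RPM in CD-F0 replicates 1 to 5 and at 8.94, 73.2, 25.5, 46.2 and 5.94 RPM in HFD-F0 replicates 1 to 5. Like mmu-mir-451a and mmu-mir-144 it was highest in HFD-F0 replicate 2. In CD-F0 replicate 3, the highest CD-F0 sample of mmu-mir-451a, it was instead at its lowest of the CD-F0 samples. The level of mmu-mir-486b was close to that of mmu-mir-486a in every sample, from 5.90 to 71.6 RPM. Its log2 fold change of 0.96 is among the 4 positive ones and is no separate observation. The 2 that were not tested, mmu-mir-142b and mmu-mir-126b, were at 0.222 RPM or less in every sample.

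miRNAs of other cell types were present in all samples. The 6 epithelial miRNAs, which are the mir-200 family and mmu-mir-205, summed to 3969 to 6756 RPM in CD-F0 sperm and to 5520 to 9463 RPM in HFD-F0 sperm. The log2 fold changes of all 6 were above 0, from 0.011 for mmu-mir-141 to 0.46 for mmu-mir-200b, at a median of 0.29, and 0 were called. Each hairpin of the mir-200 family had reads that were not whole in 7 to 10 samples, so that its values may not be separate observations. The smooth muscle pair mmu-mir-143 and mmu-mir-145a summed to 21237 to 28878 RPM and to 15716 to 35889 RPM, and mmu-mir-145a was called at 1.09 ± 0.38 (SE, edgeR adjusted p = 0.293). None of these markers was at 0 in a sample. The 5 germ cell miRNAs summed to 10478 to 12648 RPM in CD-F0 sperm and to 7275 to 15064 RPM in HFD-F0 sperm, at a median log2 fold change of -0.02 and 0 called. The summed level of both myeloid members was 477 ± 56.7 RPM (SD, n = 5) for CD-F0 sperm and 666 ± 92.7 RPM (SD, n = 5) for HFD-F0 sperm. Most of this sum was mmu-mir-223, with means of 362 and 528 RPM, against 115 and 139 RPM for mmu-mir-142a. The sum is therefore no observation apart from mmu-mir-223. The part of the other cell types in the levels of the members was not tested.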

How the data were processed

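Small RNA of 10 sperm samples, 5 CD-F0 and 5 HFD-F0, was analysed. The authors assigned clean reads to RNA classes with SPORTS and Bowtie (versions not given in the sources used here; build mm10 per the labels) and deposited estimated counts per sub-class without normalization. Reads that fit several sub-classes are split between them, so that 36.0% to 38.5% of the listed values were not whole, and low members are the less certain for it. Adapters carried molecular identifiers, but whether reads were collapsed by them is not stated.

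Here the genome-matched and unmatched estimated counts were added per hairpin, with absent hairpins at 0, and divided by clean reads (RPM). The 1470 features that do not overlap were rounded to whole numbers and tested with edgeR 4.0.16 (R 4.3.3; filterByExpr, TMM, quasi-likelihood, Benjamini-Hochberg adjustment over 814 features). SE is the absolute log2 fold change over the square root of F. DESeq2 1.42.0 and the other settings given at the end were alternatives. For the 5 pairs, r, rho and the permutation p were computed with numpy 2.4.6, with ranks from scipy 1.17.1. With 10 samples 100000 permutations were drawn, and with fewer samples all permutations were used. The scripts were tested on simulated data. No pair of libraries was alike within sampling noise (chi-square per degree of freedom at least 508 over 45 pairs).

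The members, the lists of other miRNAs and the pairs were chosen with earlier results of these data known. Named were all members, for the first member of each group the 3 hairpins with the highest Spearman's rho among those of at least 10 RPM, and of each list the miRNAs with the largest and smallest log2 fold change. Hairpins that share reads with a member, mmu-mir-126b, mmu-mir-132, mmu-mir-205, mmu-mir-34b, mmu-mir-34c, mmu-mir-449b and mmu-mir-486b were named in addition, after their values were seen.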

Additional observations from a re-analysis of the deposited data

Results flagged for a closer look

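Examined were 32 groups, which were 16 levels, sums and ratios in each of the 2 diets. Of these, 5 had 1 sample apart from the other 4 by Dixon's criterion at 95%. Chance alone meets it in about 1 of 20 groups of independent, normally distributed values. The levels, sums and ratios are not independent, and their distribution was not tested, so that this rate is no measure for the 5 groups. mmu-mir-150 was at 725 RPM in CD-F0 replicate 1, against 129 to 288 RPM in the other CD-F0 samples. mmu-mir-451a was at 1891 RPM in HFD-F0 replicate 2, against 469 to 869.6 RPM in the other HFD-F0 samples. The reads of mmu-mir-451a per read of mmu-mir-144 came to 999 in HFD-F0 replicate 3, against 193 to 346 in the other HFD-F0 samples, and rested on 28 reads of mmu-mir-144. mmu-mir-122 was at 101 RPM in CD-F0 replicate 4, against 3.45 to 20.2 RPM in the other CD-F0 samples, and at 57.1 RPM in HFD-F0 replicate 5, against 4.00 to 12.1 RPM in the other HFD-F0 samples. No cause of these values was tested.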

How the results depend on the processing

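The count of members called was 0 under each of the other settings of edgeR and with DESeq2, except without CD-F0 replicate 1 (0 to 1 with 1 sample left out), when it was mmu-mir-150 at 1.08. The median log2 fold change of the members ranged from -0.13 to 0.27 with 1 sample left out. The sign turned for mmu-mir-146a (0.046 with clean reads as library size, 0.052 without CD-F0 replicate 1, 0.034 without HFD-F0 replicate 5), mmu-mir-21a (0.00098 with clean reads), mmu-mir-142a (-0.033 without CD-F0 replicate 4, -0.048 without HFD-F0 replicate 1, -0.012 without CD-F0 replicate 4 and HFD-F0 replicate 5 together) and mmu-mir-144 (-0.21 without HFD-F0 replicate 2). The setting without both samples was added after seeing the data. With 1 sample left out, mmu-mir-223 lay between 0.38 and 0.50, mmu-mir-142a between -0.048 and 0.30, mmu-mir-144 between -0.21 and 0.49 and mmu-mir-146a between -0.15 and 0.052. Of 814 features tested 30 were called, against 93 of 1467 with no filter on low counts, 19 of 729 with at least 10 counts in every sample and 12 of 530 with miRNA features only. The count was 37 of 826 without CD-F0 replicate 1 and 50 of 827 without CD-F0 replicate 5.

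With 1 sample left out, r was 0.71 to 0.90 for mmu-mir-146a and mmu-mir-146b, 0.56 to 0.85 for mmu-mir-150 and mmu-mir-155, -0.10 to 0.43 for mmu-mir-451a and mmu-mir-144, 0.21 to 0.57 for mmu-mir-223 and mmu-mir-142a, and -0.53 to 0.10 for mmu-mir-223 and mmu-mir-451a. The first pair no longer passed without HFD-F0 replicate 1 (r = 0.79) or HFD-F0 replicate 5 (r = 0.71), nor with miRNA reads as the denominator (r = 0.62). The second no longer passed with that denominator (r = 0.71), with diet means removed (r = 0.74), without CD-F0 replicate 4 (r = 0.56), HFD-F0 replicate 1 (r = 0.73) or the 2 farthest samples (r = 0.62), or without both samples high in mmu-mir-122 (r = 0.55). The red cell pair turned to -0.27 without the 2 farthest samples and to -0.10 without HFD-F0 replicate 2. mmu-mir-223 and mmu-mir-451a had a pooled r of -0.10, and 0.37 with diet means removed, 0.10 without CD-F0 replicate 3, 0.012 without HFD-F0 replicate 5 and 0.087 without both samples. The causes were not tested.

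The groups share replicate numbers. The deviations of samples with the same number had correlations of 0.34 and 0.25 for replicates 1 and 3. They were -0.09, -0.19 and -0.14 for replicates 2, 4 and 5. These values were not compared with those of samples with unlike numbers. With a replicate block, 25 features and 0 members were called, and the members' median was 0.02. Under the block mmu-mir-150 was at 0.72 and had, like mmu-mir-223, an unadjusted edgeR p of at most 0.05, and mmu-mir-144 was at 0.02.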
